A study of Mus musculus with 8 samples.

Results

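The genes of de novo lipogenesis were followed through 8 bulk RNA-seq libraries of mouse liver. The list was drawn up by gene function and no cut on measured values, and holds 10 genes of the 54838 in the files: the enzymes Acly, Acss2, Acaca, Acacb, Fasn and Me1, the lipid-associated genes Thrsp and Pnpla3, and the transcription factors Srebf1 and Mlxipl. All 10 were found in the files and all 10 passed the filter on low counts. The liver pieces came from wild type male C57BL/6J mice that had received the liver carcinogen diethylnitrosamine (DEN) intraperitoneally at day 15 and were fed a high-fat diet (HFD) with SW, which the labels do not spell out. Both the diet and the interval since the injection are labelled 30 weeks, which leaves the exact age open to doubt. All mice shared carcinogen and diet, and livers without them were not analysed here. The labels name 4 tumours and 4 pieces of non-tumour liver, each numbered 1 to 4, but do not tell which mouse each piece came from. P-values therefore reflect the spread among these pieces, part of which may be technical.

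De novo lipogenesis turns surplus carbohydrate into fatty acids in the cytosol. Citrate or acetate is made into acetyl-CoA, carboxylated to malonyl-CoA and then condensed into palmitate with reducing power from NADPH. In hepatocytes the pathway is switched on after feeding by SREBP1c, the product of Srebf1 that answers to insulin, and by ChREBP, the product of Mlxipl that answers to glucose. It is known for contributing to fat storage in fatty liver and is raised in many liver tumours.

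The 8 libraries held 15446690 to 21977052 counts, and the 10 genes had from 5 reads (Pnpla3 in non-tumour 3) to 8648 reads (Fasn in tumour 1). Tumour 2 and tumour 4 were nearly the same, as were non-tumour 2, 3 and 4: the chi-square of gene counts per degree of freedom was 1.58 to 3.28 in these 4 pairs and 71.7 to 165 in the other 24. Such libraries were counted as 1 sample, so that tumours are 3 profiles (1, 2/4 and 3) and non-tumour liver 2 profiles (1 and 2/3/4). Between near copies the log2 level of 9 of the members had a standard deviation of 0.0097 to 0.0857, and that of Pnpla3, with few reads, 0.39. The 8 hepatocyte markers, among them Alb, Ttr and Apoa1, summed to 101600 to 183800 CPM (counts divided by library size, with sizes scaled by the trimmed mean of M-values). The tumour markers Afp, Gpc3 and H19 summed to 928 to 1442 CPM in tumours 1, 2 and 4, but to 2.79 CPM in tumour 3, below the 90.3 CPM of non-tumour 1 and the 18.4 to 20.3 CPM of non-tumour 2 to 4. Adipocytes, which also run this pathway, were not visible in their defining transcripts: Lep had no read in any library (a count of 0 allows 0.137 to 0.194 CPM), Adipoq and Plin1 were at 0.0987 CPM or less and Retn at 0.190 CPM or less. All 7 adipocyte markers, which include the less specific Cfd and Fabp4, summed to 10.5 to 19.04 CPM.

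Per length of transcript, Thrsp and Acly were the most abundant members. Thrsp had a mean of 162 TPM (reads per exon length, as a share of the library's sum of these) over the 5 profiles and Acly 115 TPM. The gap was widest in tumour 3 (332 TPM for Thrsp, 55.6 TPM for Acly). Only in tumour 1 was Acly above Thrsp (149 against 94.4 TPM). Thrsp was slightly higher in tumour 2 (138 against 136 TPM), tumour 4 (138 against 133 TPM) and non-tumour 1 (160 against 158 TPM). It was also above Acly in non-tumour 2 to 4 (82.6 to 91.7 against 75.8 to 77.2 TPM). Me1, Fasn, Srebf1 and Mlxipl came next at 70.4, 68.8, 61.2 and 55.3 TPM. The ranges of these 4 over the libraries overlapped (40.2 to 98.1 TPM in all), so their order is not larger than their spread. Acss2 stood at 42.5 TPM, Acacb at 12.5 TPM, Acaca at 6.14 TPM and Pnpla3 at 4.60 TPM. The lengths are those of all annotated exons of a gene together (17074 bases for Acaca), which understates a gene with long exons that the liver does not use. The plot of levels by library shows the 10 genes side by side.

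**Figure D1:**
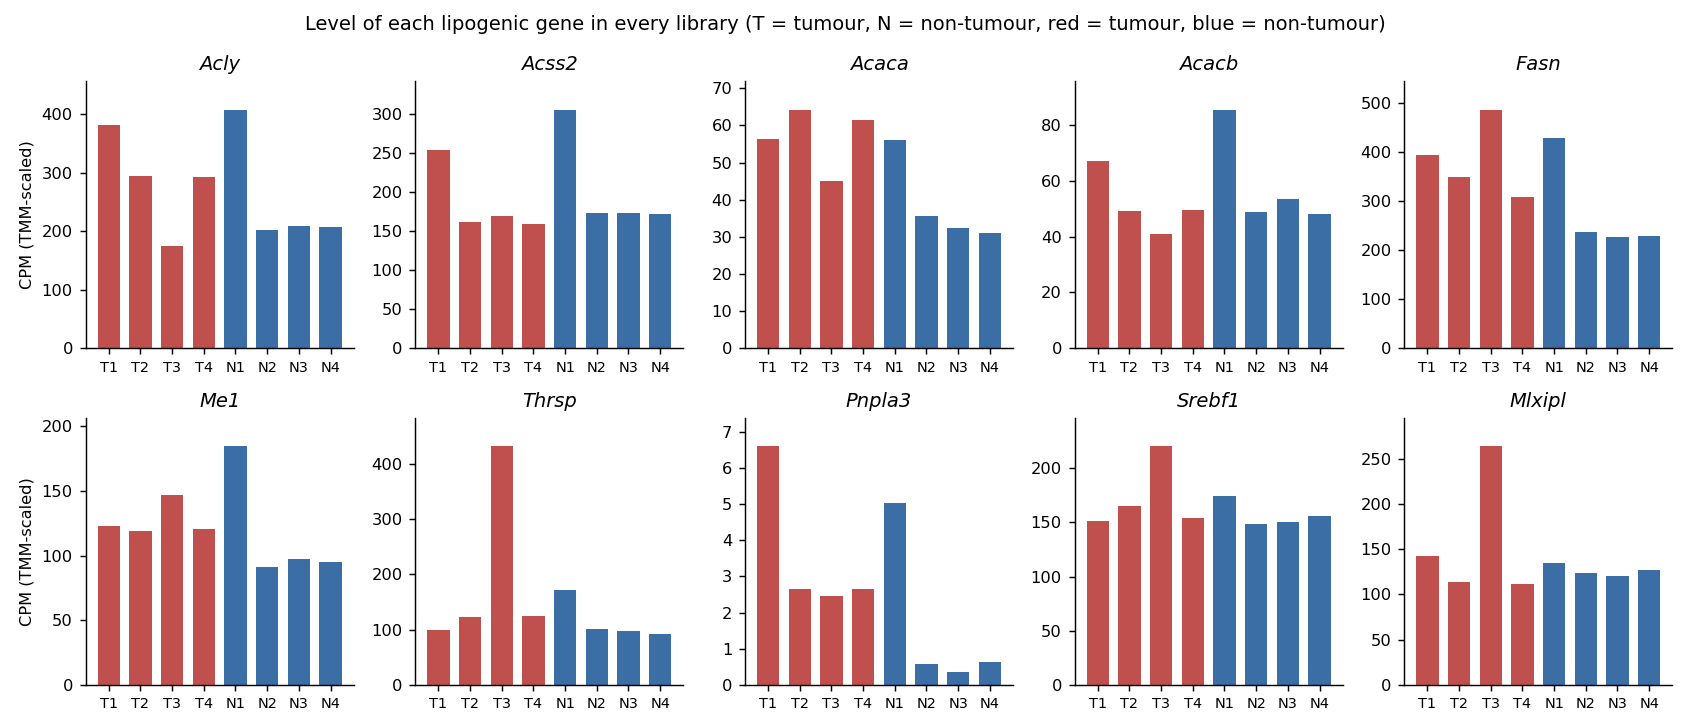
Level of each of the 10 genes in every library, in TMM-scaled CPM on axes that start at 0, with tumours (T1 to T4) in red and non-tumour liver (N1 to N4) in blue; each bar is 1 library. Non-tumour 1 stands well above non-tumour 2, 3 and 4 for 8 genes, and tumour 3 stands apart for Thrsp (432 CPM) and Mlxipl (264 CPM).

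The sequences before the start sites of 4 members are printed because they stand for the patterns described below: Fasn, high in both non-tumour 1 and tumour 3, Acly, high in non-tumour 1 and low in tumour 3, Mlxipl, high in tumour 3 alone, and Pnpla3, with the widest range. Each is the 250 bases before the RefSeq start site (GRCm38.p6), 5′ to 3′ on the gene's strand. Capitals mark matches to CCAAT, the core of the NF-Y site that often lies beside SREBP sites, or to the E-box CACGTG, on either strand; the sterol response element below has no match in these 4.
Fasn, chr11:120824548-120824797, minus strand: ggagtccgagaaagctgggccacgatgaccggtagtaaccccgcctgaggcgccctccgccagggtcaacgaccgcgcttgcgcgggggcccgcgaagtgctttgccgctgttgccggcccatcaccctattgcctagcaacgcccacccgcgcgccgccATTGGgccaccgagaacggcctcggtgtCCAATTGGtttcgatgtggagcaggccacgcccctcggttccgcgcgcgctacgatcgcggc
Acly, chr11:100528001-100528250, minus strand: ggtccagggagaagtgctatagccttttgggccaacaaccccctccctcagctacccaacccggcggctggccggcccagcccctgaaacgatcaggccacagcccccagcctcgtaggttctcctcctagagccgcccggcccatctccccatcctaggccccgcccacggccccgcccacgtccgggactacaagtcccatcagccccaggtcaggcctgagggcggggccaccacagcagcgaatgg
Mlxipl, chr5:135089640-135089889, plus strand: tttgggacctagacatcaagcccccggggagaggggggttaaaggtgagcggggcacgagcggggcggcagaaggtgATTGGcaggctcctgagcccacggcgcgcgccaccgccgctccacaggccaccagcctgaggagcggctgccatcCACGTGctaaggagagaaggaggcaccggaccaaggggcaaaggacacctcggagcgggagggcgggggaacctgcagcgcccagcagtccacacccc
Pnpla3, chr15:84167566-84167815, plus strand: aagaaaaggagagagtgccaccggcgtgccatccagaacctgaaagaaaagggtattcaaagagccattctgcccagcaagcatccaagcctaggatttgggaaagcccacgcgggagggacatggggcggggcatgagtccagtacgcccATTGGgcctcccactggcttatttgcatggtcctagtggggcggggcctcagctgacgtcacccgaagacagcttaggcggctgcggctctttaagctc
The Fasn window held 3 CCAAT matches, 2 of them overlapping in one palindrome, Pnpla3 and Mlxipl held 1 each, and Acly held none. Over all members, 9 of 14 start sites (64.3%) had CCAAT in this window, against 33.8% of the 32851 windows of that length in the table. Of the 14, 8 lie within 200 bases of the gene's 5′ end in the files and 6 of these had CCAAT; the other 6 lie 1954 to 65766 bases inside the gene and 3 of them had it. The E-box was present in 1 of the 14 (7.14%, against 6.02%), the Mlxipl window shown, and the sterol response element TCACNCCAC in 1 (7.14%, against 1.05%), a second Mlxipl start site. The short SREBP motif CACCC was present in 8 of the 14 (57.1%, against 52.0%) and the Sp1 box GGGCGG in 7 (50.0%, against 32.7%); neither is in capitals. These 5 motifs were all that were searched. The matches describe letters and not binding, the table holds several start sites for 3 members, and overlaps between motifs were not removed.

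Acly and Acss2 make the acetyl-CoA. Acly, ATP citrate lyase (chromosome 11, 100476353 to 100528000, minus strand), which splits citrate, stood at 381, 293, 175 and 292 CPM in tumours 1 to 4 and at 408, 202, 209 and 207 CPM in non-tumour 1 to 4. Non-tumour 1 was the highest library and tumour 3 the lowest, so the groups overlapped. Over profiles Acly averaged 281 ± 103 CPM in tumours (SD, n = 3) and 307 ± 141 CPM in non-tumour liver (SD, n = 2), which is -0.12 as a log2 fold change (SE 0.42; adjusted p = 0.995 by edgeR's quasi-likelihood test, Benjamini-Hochberg over all genes). Acss2, the cytosolic acetyl-CoA synthetase that uses acetate (chromosome 2, 155517948 to 155585724), measured 254, 161, 169 and 159 CPM in the 4 tumours and 305, 173, 173 and 172 CPM in non-tumour liver. Tumour 1 and non-tumour 1 were the high libraries, and the other 6 lay within 159 to 173 CPM. The difference was -0.30 in log2 (SE 0.33, adjusted p = 0.995).

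Acaca and Acacb encode the carboxylases that make malonyl-CoA, the first committed step. The cytosolic form ACC1 (Acaca) feeds synthesis, whereas ACC2 (Acacb) sits at the mitochondrial surface, where malonyl-CoA holds back fatty acid entry. Acaca (chromosome 11, 84129672 to 84401651) measured 56.2, 64.3, 45.1 and 61.4 CPM in the 4 tumours and 56.1, 35.5, 32.3 and 31.0 CPM in non-tumour liver. Every tumour lay above the 3 near-identical non-tumour libraries, but non-tumour 1 lay among the tumours. Acacb (chromosome 5, 114146535 to 114250761) measured 67.0, 49.1, 41.0 and 49.7 CPM in the 4 tumours and 85.6, 48.8, 53.7 and 48.2 CPM in non-tumour liver, with tumour 3 the lowest. The log2 fold changes were 0.29 for Acaca (SE 0.27) and -0.38 for Acacb (SE 0.30), both with an adjusted p of 0.995.

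Fasn, the multi-enzyme fatty acid synthase that builds palmitate (chromosome 11, 120805846 to 120824547, minus strand), measured 394, 349, 487 and 309 CPM in the 4 tumours and 429, 237, 227 and 230 CPM in non-tumour liver. Tumour 3 was highest and the 3 near-identical non-tumour libraries lowest, with non-tumour 1 between the tumours. Fasn averaged 402 ± 79.3 CPM in tumours (SD, n = 3) and 330 ± 138 CPM in non-tumour liver (SD, n = 2), or 0.28 on the log2 scale (SE 0.33, adjusted p = 0.995). Me1, the cytosolic malic enzyme that supplies NADPH (chromosome 9, 86581371 to 86695953, minus strand), measured 123, 119, 147 and 120 CPM in the 4 tumours and 184, 91.5, 97.4 and 94.6 CPM in non-tumour liver. All 4 tumours lay between non-tumour 1 and the other non-tumour libraries. Its log2 fold change was -0.11 (SE 0.31, adjusted p = 0.995).

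Thrsp, or Spot14, a small protein induced by thyroid hormone and carbohydrate (chromosome 7, 97412938 to 97417730, minus strand), measured 99.97, 124, 432 and 125 CPM in the 4 tumours and 171, 101, 97.3 and 91.6 CPM in non-tumour liver. Tumour 3 was 4.43-fold over the non-tumour 2/3/4 profile, while tumours 1, 2 and 4 were within the non-tumour range. The log2 fold change was 0.70 with an SE of 0.68 (adjusted p = 0.995), and without tumour 3 it was -0.27 on the profiles (adjusted p = 0.832), so its direction rested on that tumour. Pnpla3, a lipid droplet protein of the patatin family and a target of both transcription factors (chromosome 15, 84167837 to 84187236), measured 6.604, 2.65, 2.47 and 2.66 CPM in the 4 tumours and 5.04, 0.583, 0.341 and 0.624 CPM in non-tumour liver. It had the widest range of the members, 12.5-fold between tumour 1 and the non-tumour 2/3/4 profile. The low values rest on 10, 5 and 10 reads, against 100 reads in non-tumour 1 and 39 to 145 in tumours, so they are the least precise values of the list. Its log2 fold change was 0.53 (SE 0.92, adjusted p = 0.995).

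The transcription factors varied less between the non-tumour libraries than the enzymes did. Srebf1 (chromosome 11, 60199089 to 60222581, minus strand; its SREBP1a and SREBP1c transcripts cannot be told apart in gene counts) measured 151, 165, 220 and 154 CPM in the 4 tumours and 175, 149, 151 and 156 CPM in non-tumour liver. Only tumour 3 lay above non-tumour 1. Mlxipl (chromosome 5, 135089890 to 135138382) measured 143, 114, 264 and 111 CPM in the 4 tumours and 135, 124, 120 and 127 CPM in non-tumour liver, again with tumour 3 on its own. Their log2 fold changes were 0.11 (SE 0.24) and 0.41 (SE 0.38), both with an adjusted p of 0.995, and both turned negative without tumour 3 (-0.08 and -0.03).

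The comparison of tumour with non-tumour liver asks whether the tumours ran the lipogenic program at another level. On the 5 profiles none of the 10 members passed the test over 13650 genes (0% of all genes passed, and 3.30% had an unadjusted p under 0.05, with no member among them; limma voom also called 0 genes, 411 at an unadjusted p under 0.05, and DESeq2 called 2, 577 at that level). Of the members 6 had a positive and 4 a negative log2 fold change, with a median of 0.20, against 0.01 over all genes. For no member did all tumour profiles lie on 1 side of both non-tumour profiles, whereas 18.4% of all genes were separated in this way (9.47% with tumours higher and 8.89% with tumours lower). The 95% intervals were wide: from -0.37 to 0.95 for Acaca, -0.52 to 1.08 for Fasn, -1.14 to 0.89 for Acly and -1.68 to 2.75 for Pnpla3, and all 10 included 0. With the 8 libraries as separate samples, which takes near copies for replicates, 0.435% of genes passed and no member did. There 1 member, Acaca, had an unadjusted p under 0.05 (18.0% of all genes did), at 0.55 on the log2 scale (SE 0.20, adjusted p = 0.201).

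**Figure D2:**
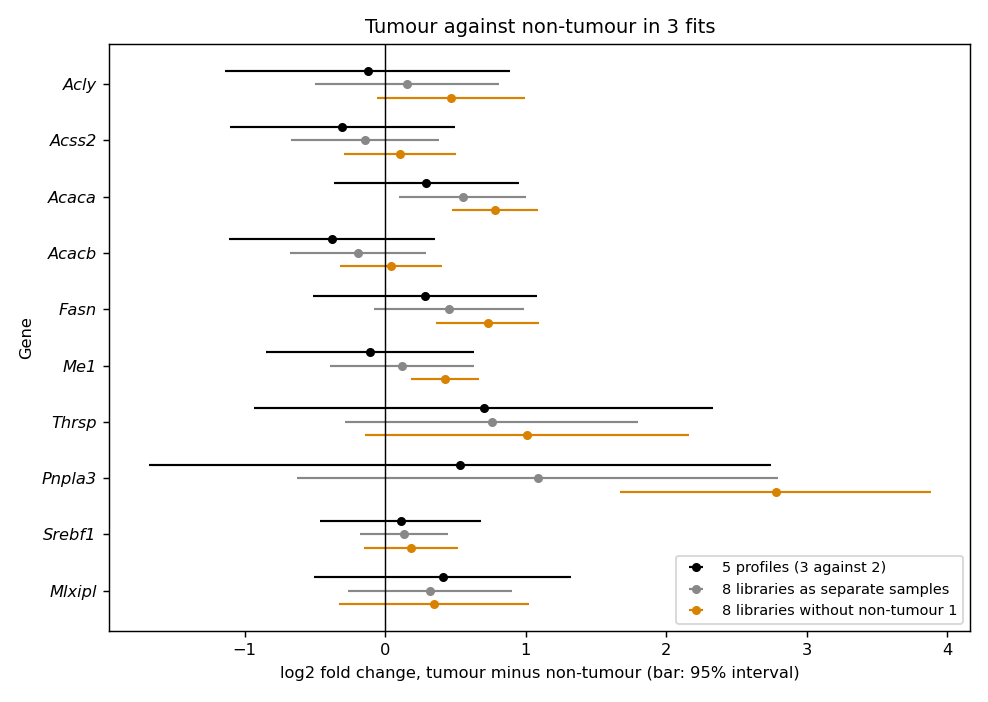
Log2 fold change of each gene, tumour minus non-tumour, from edgeR on the 5 profiles (black), on 8 separate libraries (grey) and on the 8 libraries without non-tumour 1 (orange); bars are 95% intervals. The black intervals all include 0, and without non-tumour 1 the points of Acaca, Fasn and Pnpla3 move to 0.78, 0.73 and 2.78.

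Whether tumours looked higher depended on which non-tumour profile they were set against. Without non-tumour 1, over the other 7 libraries, Acaca (log2 fold change 0.78, adjusted p = 0.0187), Fasn (0.73, adjusted p = 0.0405) and Pnpla3 (2.78, adjusted p = 0.0198) passed edgeR's test, together with 766 of 13100 genes. In that fit the non-tumour group consists of 3 near copies. With these counted once, no gene passed and the 3 adjusted p-values were 0.999. Against non-tumour 1 alone, Acaca, Fasn and Pnpla3 had log2 fold changes of -0.04, -0.09 and -0.37. Every tumour profile lay above the non-tumour 2/3/4 profile for 5 members (Acaca, Fasn, Me1, Thrsp and Pnpla3), against 22.2% of all genes. For Thrsp this rested on a 1.02-fold difference in tumour 1. Non-tumour 1 was the highest of the 5 profiles for 4 members (Acly, Acss2, Acacb and Me1), against 20.4% of all genes. The non-tumour 2/3/4 profile was the lowest for 5 (17.2% of all genes).

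The largest shared difference was that between the 2 non-tumour profiles, which carry the same label. Non-tumour 1 was higher than non-tumour 2/3/4 for 10 of 10 members (48.2% of all genes) and at least 1.5-fold higher for 8 (15.4% of all genes); 1 member, Pnpla3, passed 2-fold (8.02%) and none was 1.5-fold lower (8.92%). With 1 profile on each side there is no test. The median difference was 0.81 log2 units over the members and -0.01 over all genes. The enzymes moved by similar amounts: the fold was 1.97 for Acly, 1.76 for Acss2, 1.69 for Acaca, 1.70 for Acacb, 1.84 for Fasn and 1.94 for Me1. Thrsp was 1.76-fold and Pnpla3 9.58-fold higher. The regulators differed least, 1.14-fold for Srebf1 and 1.08-fold for Mlxipl. These differences were 3.11 (Mlxipl) to 84.0 (Acss2) times the standard deviation between near copies of the same gene, an error that holds only what differs between near copies. That standard deviation comes from few libraries (0.0097 for Acss2), so the multiples do not rank the genes.

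**Figure D3:**
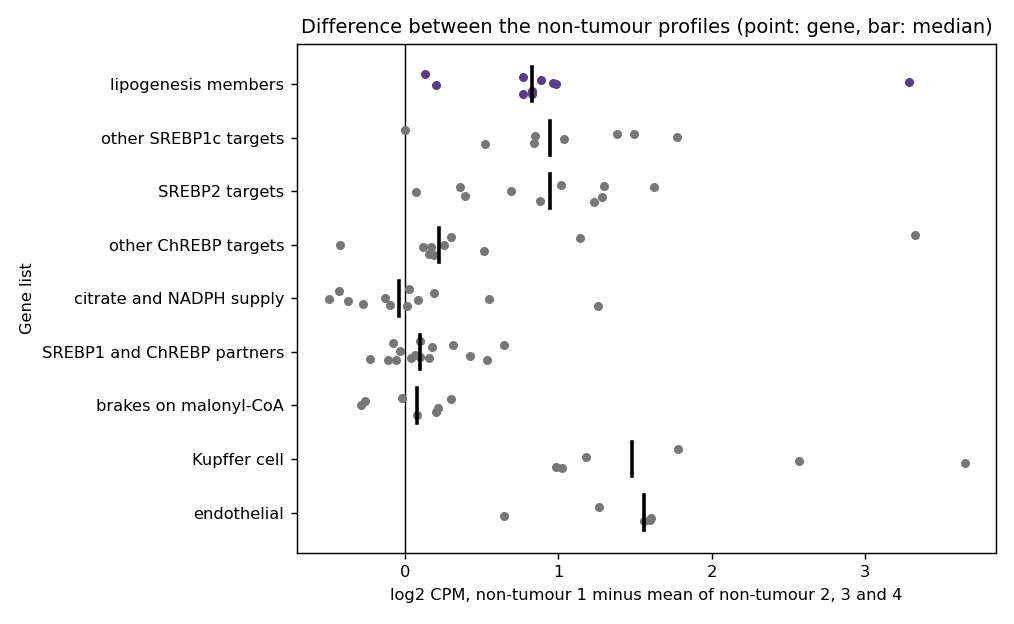
Difference in log2 CPM between non-tumour 1 and the mean of non-tumour 2, 3 and 4; each point is a gene of the list named on the left and each bar the list's median. The medians of the 10 lipogenic genes (purple), of the SREBP1c and SREBP2 targets and of the Kupffer cell and endothelial markers lie well to the right of 0, while those for citrate and NADPH supply, partners and brakes lie near it.

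Other genes of the program, from lists chosen with earlier results of these data known, were described in the same way, and none of their members passed the test on the profiles. Among 8 other SREBP1c targets 6 were at least 1.5-fold higher in non-tumour 1 than in non-tumour 2/3/4 (median difference 0.93), among them the stearoyl-CoA desaturase Scd1, at 9529 against 5184 to 5530 CPM, and Gpam, which starts glycerolipid synthesis, at 240 against 68.0 to 72.4 CPM. Among 10 SREBP2 targets of cholesterol synthesis and uptake 7 were (median 0.94). The count was 2 of 10 for other ChREBP targets (median 0.21), which include the hepatokine Fgf21 at 5.398 against 0.478 to 0.641 CPM. It was 1 of 12 for citrate and NADPH supply (median -0.05), where G6pdx, the entry enzyme of the pentose phosphate pathway, stood at 11.5 against 4.37 to 5.53 CPM. It was 1 of 15 for partners of the transcription factors (median 0.08) and 0 of 7 for brakes on malonyl-CoA such as the AMP-activated kinase subunits (median 0.08).

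Between tumours and non-tumour liver the same lists had median log2 fold changes of 0.10 (SREBP1c targets), 0.61 (SREBP2 targets), 0.17 (ChREBP targets), 0.07 (citrate and NADPH supply), -0.09 (partners), 0.07 (brakes), 0.17 (fasting genes) and 0.13 (clock genes), beside 0.01 for all genes. Among the 2 genes of each list with the largest fold changes were Gpam (-0.36), Lss (0.84) and Hmgcs1 (0.79) of cholesterol synthesis, Fgf21 (1.43) and the glucose-6-phosphatase gene G6pc (-0.66), G6pdx and the pyruvate carrier gene Mpc1 (0.47 each), Rxra (-0.49) and Fbxw7 (0.42), Prkab1 (0.56) and Prkaa2 (-0.38), Igfbp1 (2.47) and Cyp4a10 (0.90), and Dbp (2.29) and Per3 (2.07). Each had an adjusted p of 0.995 in edgeR. The tumours were split for Igfbp1, at 626 CPM in tumour 1, 461 CPM in tumour 2/4 and 3.92 CPM in tumour 3. Non-tumour 1 and 2/3/4 had 95.3 and 36.2 CPM of it. Cyp4a10 had 104 CPM in tumour 1, below the non-tumour profiles (220 and 180 CPM), and 337 and 676 CPM in tumours 2/4 and 3.

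Other features of non-tumour 1 moved with its lipogenic genes. All 6 Kupffer cell markers and all 5 endothelial markers were highest in this profile, summing to 538 and 248 CPM, against 172 to 219 and 104 to 147 CPM in the other libraries. All 3 tumour markers were also at least 1.5-fold higher in non-tumour 1 than in non-tumour 2/3/4 (median difference 1.98 log2 units), H19 at 63.2 against 9.15 to 10.98 CPM and Afp at 19.4 against 4.71 to 5.06 CPM. Of the 7 markers of other leukocytes 3 were at least 1.5-fold higher and 2 at least 1.5-fold lower, and their sum, mostly Lyz2, was 212 against 64.0 to 66.4 CPM. The hepatocyte markers summed to 101600 CPM in it, against 113600 to 118300 CPM in non-tumour 2 to 4, so the lipogenic difference ran opposite to that sum. Most of the sum was Alb (73299 CPM in non-tumour 1), and the 8 markers moved unevenly. Only 1, Hnf4a, was higher in non-tumour 1 (498 against 444 to 452 CPM), and 2, Cps1 and Tat, were at least 1.5-fold lower. In bulk tissue fewer cells of a type and less RNA per cell cannot be told apart. The gluconeogenic gene Pck1, induced by fasting, had 303 CPM in non-tumour 1, 1355 to 1412 CPM in non-tumour 2 to 4 and 282 to 705 CPM in tumours. The list of 10 fasting genes did not move as one, with 2 members at least 1.5-fold higher and 2 at least 1.5-fold lower in non-tumour 1. The part of these in the lipogenic difference was not tested.

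Tumour 3 carried another combination. In CPM it was the highest profile for Fasn, Thrsp, Srebf1 and Mlxipl (4 of 10 members, against 29.7% of all genes) and the lowest for Acly and Acacb. In TPM it stayed the highest for Thrsp and Mlxipl, but not for Fasn and Srebf1. Fasn had 74.8 TPM in tumour 3 against 80.1 TPM in non-tumour 1, and Srebf1 65.7 TPM against 71.9 TPM in tumour 2. Relative to the non-tumour 2/3/4 profile, tumour 3 was 4.69-fold for Pnpla3, 4.43-fold for Thrsp, 2.11-fold for Mlxipl, 2.08-fold for Fasn, 1.54-fold for Me1 and 1.44-fold for Srebf1, but 0.842-fold for Acly and 0.810-fold for Acacb. Tumour 1 differed from it, with 12.5-fold for Pnpla3, 1.83-fold for Acly, 1.68-fold for Fasn and Acaca, 1.46-fold for Acss2 and 1.32-fold for Acacb, and 1.02-fold for Thrsp and 0.984-fold for Srebf1. Tumour 2/4 lay 5.04-fold over the reference profile for Pnpla3, 1.89-fold for Acaca and 1.41-fold for Fasn and Acly, and between 0.900-fold and 1.27-fold for Acss2, Acacb, Me1, Thrsp, Srebf1 and Mlxipl. The map of deviations shows these 3 patterns.

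**Figure D4:**
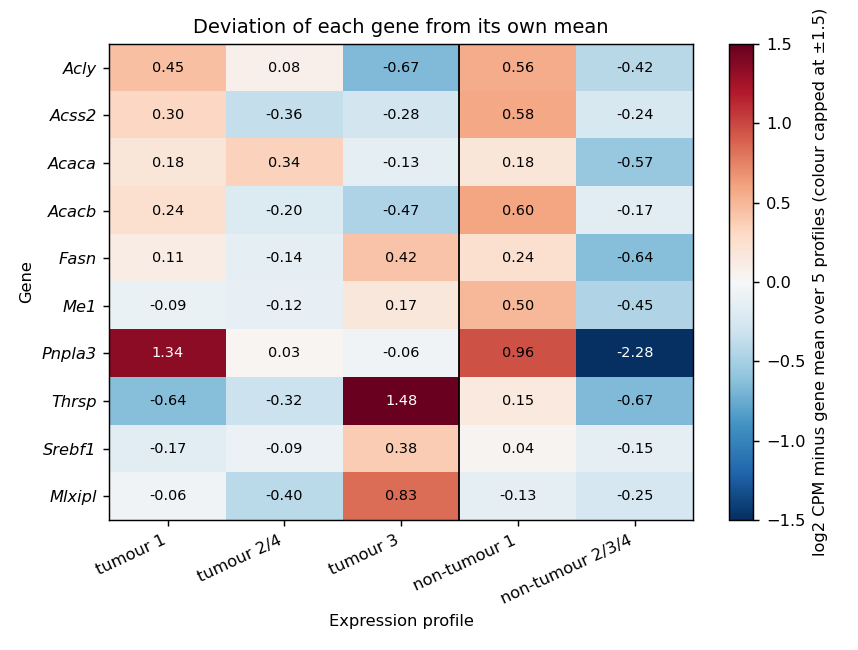
Log2 CPM of each gene minus its own mean over the 5 profiles, red above and blue below that mean, with the value printed in each field and the colour capped at 1.5. Non-tumour 2/3/4 is below 0 for all 10 genes, and tumour 3 is above 0 for Fasn, Me1, Thrsp, Srebf1 and Mlxipl and below 0 for the other 5.

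Tumour 3 also stood apart in clock genes, a set that lipogenic genes follow through the day. Dbp, a clock output gene, measured 85.3 CPM in it, whereas the other 7 libraries had 3.99 to 14.3 CPM, and Per3 measured 18.6 CPM against 1.16 to 2.73 CPM. Arntl, which encodes the activator BMAL1, was low, 2.09 CPM where the others had 17.0 to 23.2 CPM. The time of sampling and the feeding state are not given in the labels, and the part of either in these levels was not tested.

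Ratios between members within a library do not depend on how libraries are scaled. Per exon length, Acacb exceeded Acaca 2.11, 1.35, 1.61 and 1.44 times in tumours 1 to 4 and 2.71, 2.44, 2.95 and 2.75 times in non-tumour 1 to 4. All tumours lay below all non-tumour libraries, and the 2 non-tumour profiles had the same mean log2 ratio (1.44 each) although both genes were 1.69 to 1.70-fold higher in non-tumour 1. The size of the ratio depends on the exon lengths, which are doubtful for Acaca: in reads alone it was 1.19, 0.764, 0.909 and 0.810 in tumours and 1.38 to 1.66 in non-tumour liver, so Acacb had fewer reads than Acaca in tumours 2, 3 and 4. Over profiles the log2 ratio per length was 0.75 ± 0.30 in tumours (SD, n = 3) and 1.44 ± 0.0002 in non-tumour liver (SD, n = 2), or -0.08 and 0.61 in reads without length. The SD of 0.0002 is far below the spread between near copies (log2 ratio 1.29 in non-tumour 2 and 1.56 in non-tumour 3). It does not measure how precisely the non-tumour ratio is known. The ratios were planned as a description and the test was added after their values were seen. A two-sided exact permutation test gave p = 0.2, the smallest value that 3 against 2 profiles allow (0.6 after adjustment over the 3 ratios computed). In CPM, 18.4% of single genes had groups that did not overlap. The same share over ratios of gene pairs was not computed. The ratio of Acss2 to Acly was 0.347, 0.286, 0.503 and 0.283 in tumours and 0.389, 0.444, 0.430 and 0.431 in non-tumour liver, with tumour 3 above and the other tumours below all non-tumour libraries (exact permutation p = 0.8, also 0.8 adjusted). Mlxipl to Srebf1 was 0.963, 0.702, 1.22 and 0.733 in tumours and 0.789, 0.851, 0.810 and 0.829 in non-tumour liver (exact permutation p = 0.6, adjusted 0.8), and only in tumour 3 did Mlxipl exceed Srebf1.

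**Figure D5:**
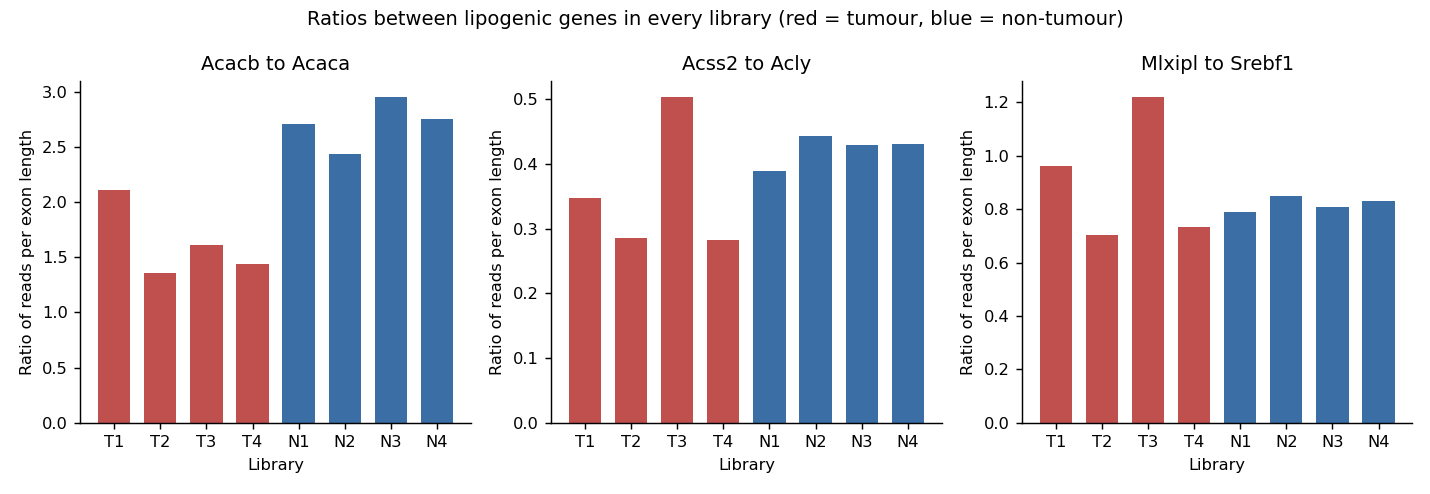
Ratio of reads per exon length for 3 pairs of lipogenic genes in every library, with tumours (T1 to T4) in red and non-tumour liver (N1 to N4) in blue; each bar is 1 library and each axis starts at 0. The Acacb to Acaca ratio is 1.35 to 2.11 in tumours and 2.44 to 2.95 in non-tumour liver, and the other pairs overlap.

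Likeness between members was measured as the root-mean-square difference of their centred log2 levels over the 5 profiles. Acss2 and Acacb were the closest pair (0.119), followed by Fasn and Me1 (0.204). The nearest member to Acly was Acacb (0.214), to Srebf1 it was Me1 (0.266), to Mlxipl Srebf1 (0.267), to Acaca Me1 (0.317) and to Thrsp Mlxipl (0.450). Pnpla3 was the farthest member from 8 of the other 9, and its own nearest, Acly, was 0.978 away. Outside the list, among genes with a mean of at least 5 CPM, the 5 closest to the mean of the 10 members were Gimap6 (0.0882), the water channel gene Aqp8 (0.0971), Plekho1 (0.0977), the cholesterol synthesis gene Nsdhl (0.0996) and Tmem106a (0.115). The 5 are a description, picked from 8755 genes compared. The mean weights all members equally, so it is pulled by those that deviate most. Pnpla3, with few reads, stood at -2.28 in non-tumour 2/3/4 and 1.34 in tumour 1, where the mean was -0.58 and 0.17. Thrsp stood at 1.48 in tumour 3, where the mean was 0.17.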

How the data were processed

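RNA of 8 liver pieces was sequenced from Illumina mRNA libraries, per the labels' protocols. The authors deposited raw read counts per gene, counted with featureCounts 1.6.2 over exons of Ensembl release 95 (GRCm38) with strand setting 2 and without multi-mapping reads, per the file headers; the submitters' processing notes add STAR 2.5.0. Read length and trimming: not stated. Symbols from a table for the same build matched 54723 of 54838 gene IDs. Exons of other genes on the same strand covered 6.78% of the exon bases of Pnpla3, 1.17% of Srebf1 and none of the other 8. Both partners had no reads, which does not tell whether reads over the shared bases were counted for the member.

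Counts of near-identical libraries (chi-square per degree of freedom under 10) were summed. Differences were tested with edgeR 4.0.16 (R 4.3.3; glmQLFit robust, TMM, filterByExpr with minimum count 10) and Benjamini-Hochberg adjustment over all genes at 0.05; standard errors are the log2 fold change over the root of F. Library CPM were scaled over 8 libraries, profile means and SDs over 5 profiles. Alternatives, including limma 3.58.1 and DESeq2 1.42.0, are given at the end. The fit was tested on simulated data with 3 against 2 profiles and 1 common dispersion (0.0823). It recovered 3.6% of 1000 changes of 1 log2 unit and 94.8% of 1000 changes of 2 log2 units. A change of 1 log2 unit would therefore mostly not be called. Every simulated gene varied alike, so the share for 2 log2 units need not hold for genes with a larger spread. On the real profiles edgeR did not call Afp (log2 fold change 5.13) or Gpc3 (4.27), both with an adjusted p of 0.995. The 95% intervals come from the fit; the floor of 3 counts for a count of 0 covers counting error only. The members, gene lists, summing and alternatives were chosen with earlier results of these data known. From each related list the rule named the 2 members with the largest fold changes and at least 5 CPM, of which 1 is not reported here; Scd1, Pck1, Arntl and the markers were named after their values were seen. One listed symbol, Pc, matched no gene name. Promoter sequences are from RefSeq (GRCm38.p6); all 10 members matched.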

Additional observations from a re-analysis of the deposited data

How the results depend on the processing

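No member was called under any of the 13 settings that kept all profiles, and 8 of the 10 kept their direction in all 13. The exceptions were Acly and Me1, which turned to 0.15 and 0.12 over 8 separate libraries, and to 0.17 and 0.18 with the replicate block. Both fits count the near copies of non-tumour 2/3/4, where these genes were low, as separate libraries. On the profiles without non-tumour 1 both values were 0.44. The part of this in the turn was not tested. Whether the replicate numbers pair the samples is not known. Deviations from the group mean correlated at 0.35, -0.14, 0.27 and -0.11 for numbers 1 to 4. Near copies carry different numbers, so these correlations cannot decide it. In the fit with the block over 8 libraries edgeR called 0 of 12880 genes (2264 with an unadjusted p under 0.05). The value for Pnpla3, 0.53, was 1.08 over 8 libraries, 1.61 with the block and 1.5 with limma voom. The count of all genes called, 0 on the profiles, was 56 over 8 libraries, 427 without a filter on low counts (24531 genes tested) and 2 with DESeq2. When 1 profile or 1 of 8 libraries was left out, it ranged from 0 to 1798 (the highest without tumour 3 over 8 libraries), and the count of members called from 0 to 3 (3 without non-tumour 1). Over these fits the log2 fold change ranged from -0.53 to 0.47 for Acly, -0.66 to 0.15 for Acss2, -0.04 to 0.78 for Acaca, -0.71 to 0.05 for Acacb, -0.09 to 0.78 for Fasn, -0.51 to 0.44 for Me1, -0.27 to 1.15 for Thrsp, -0.37 to 2.87 for Pnpla3, -0.08 to 0.21 for Srebf1 and -0.05 to 0.63 for Mlxipl. A group left with 1 profile was assumed to vary like the other. The 8 members at least 1.5-fold higher in non-tumour 1 numbered 8 under library size and under DESeq2 size factors too, a check added after seeing the data. Depth limits Pnpla3, with 5 to 145 reads per library; the other 9 members had at least 473.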
